A study of Rattus norvegicus with 20 samples.

Results

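The soleus of contused rats that swam was compared with the soleus of uninjured rats, by RNA sequencing of poly-A RNA. The comparison takes the 4 libraries labelled contusion with swimming and the 4 libraries labelled uninjured, 8 of the 20 in the study, and was chosen by label alone. The rats were Sprague-Dawley. The swimming group had a 25 g-cm contusion of the spinal cord at T2, the upper thoracic level, after a laminectomy, and swam on 5 days a week for 10 weeks beginning 2.5 weeks after injury. Their muscle was taken 13.5 weeks after injury. The uninjured group had neither injury nor exercise and is labelled 11.5 weeks. The design text states that all animals lived in small cages that restricted movement. Injury, exercise and a later labelled time therefore differ together between these groups and cannot be told apart here. The other groups, of 4 libraries each, were contused rats that walked in shallow water (13.5 weeks), contused rats without exercise (11.5 weeks) and rats with a complete transection at T2 (8.5 weeks). The design text describes separate animals.

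The soleus is a postural muscle of the lower hind limb, made mostly of slow, oxidative fibres that are active during standing. An upper thoracic cord injury interrupts the drive from the brain to the hind limb while the motor neurons of the lumbar cord and their nerve stay in place. Slow muscle under reduced use is known to lose mass and to take on features of fast fibres. In water, buoyancy carries much of the body weight, so swimming moves the limbs with little load.

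The deposited table names genes by Ensembl identifier only, and 0 of its 24613 identifiers could be paired with a symbol from the gene table used here. Gene lists by pathway or cell type could therefore not be applied, and the labelled tissue was not checked against its markers. The genes are described by direction, size and abundance instead, and a few are given by identifier, without roles. Totals ran from 21165832 to 30649862 counts in swimming libraries and from 26195066 to 39729930 in uninjured ones. Of 18618 genes with a count in any library of the study, 13398 had enough counts to be tested.

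Swimming library 2 stood apart. The genes later found to be higher after swimming held 30.1% of its counts, against 12.6% to 13.6% in the other 3 swimming libraries. The main results are given with and without it. Others, such as the counts of genes whose groups did not overlap, include it throughout and may depend on it.

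Many soleus genes differed after contusion and swimming. Of the 13398 tested, 1355 were higher and 1347 lower than in uninjured muscle, which is 20.2% in all and 10.1% in each direction (edgeR quasi-likelihood test, Benjamini-Hochberg adjusted p below 0.05). Genes that rose changed by more. Among them 480 passed 2-fold and 101 passed 4-fold, whereas 232 of the genes that fell passed 2-fold and 50 passed 4-fold. Genes that rose had a median log2 change of 0.84, with quartiles of 0.64 and 1.17, and genes that fell one of -0.60, with quartiles of -0.47 and -0.84. The smallest called changes were 0.27 and -0.25, and the median standard error (SE) of a log2 fold change over all tested genes was 0.20. In bulk muscle, fewer cells of a type and less RNA per cell cannot be told apart.

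The number of called genes moved with single libraries. Without swimming library 2, 1042 genes were higher and 1216 lower, and 926 and 1037 of these were among the genes called with all libraries. Without it, 329 of the higher and 182 of the lower genes passed 2-fold. With transection library 3 left out as well, a fit added after seeing the data, 1313 genes were higher and 1592 lower. Without uninjured library 4 the numbers were 701 higher and 776 lower, of which 694 and 768 were among those called with all libraries. Without uninjured library 1, 844 genes were higher. Scaled by library totals alone, 1194 genes rose and 775 fell, so that 60.6% of calls were higher, against 50.1% with the scaling used.

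**Figure D1:**
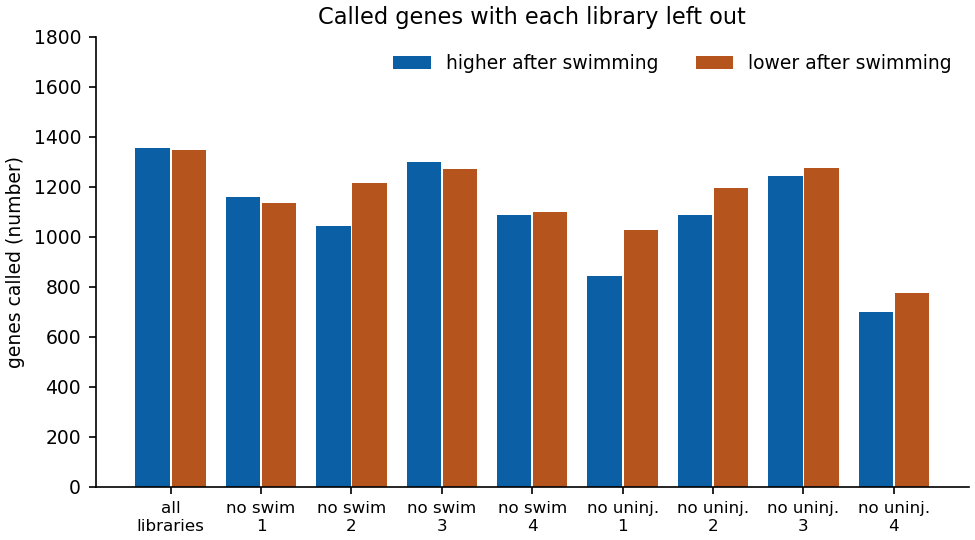
Number of genes called higher (blue) and lower (orange) in contused rats that swam than in uninjured rats, with all libraries and with each of the 8 libraries left out in turn. The bars start at 0; leaving out uninjured library 4 gives the lowest pair, 701 higher and 776 lower.

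The groups did not overlap in 23.0% of tested genes. All 4 swimming libraries lay above all 4 uninjured libraries in 1537 genes (11.5%), and below them in 1550 (11.6%). Of the called genes, 1036 of the 1355 that rose and 1103 of the 1347 that fell were separated in this way. The test called the remaining genes although at least 1 library of each group reached into the range of the other.

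Some genes lay beyond every other library of the study. In 158 genes (1.18%) the 4 swimming libraries were above all 16 others, and in 151 (1.13%) they were below all 16. The same counts were 5 and 0 for walking libraries, 3 and 1 for contusion libraries, 403 and 646 for transection libraries, and 145 and 87 for uninjured libraries. These are counts of libraries in order, without a test of the difference between groups.

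The direction of change varied with abundance. Genes were divided by their mean CPM over the 8 libraries, the count scaled to the size of its library and not divided by transcript length. Below 1 CPM, 85 genes rose and 34 fell of 1790. Between 1 and 10 CPM, 467 rose and 213 fell of 4463, which is 10.5% and 4.77%. Less abundant genes that passed the test were thus mostly higher after swimming.

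The opposite held in the middle of the range. Between 10 and 100 CPM, 708 rose and 879 fell of 6073. Between 100 and 1000 CPM, 75 rose and 207 fell of 985, so 7.61% were higher and 21.0% lower. Above 1000 CPM, 20 rose and 14 fell of 87. The share of genes that fell was highest in the class from 100 to 1000 CPM.

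**Figure D2:**
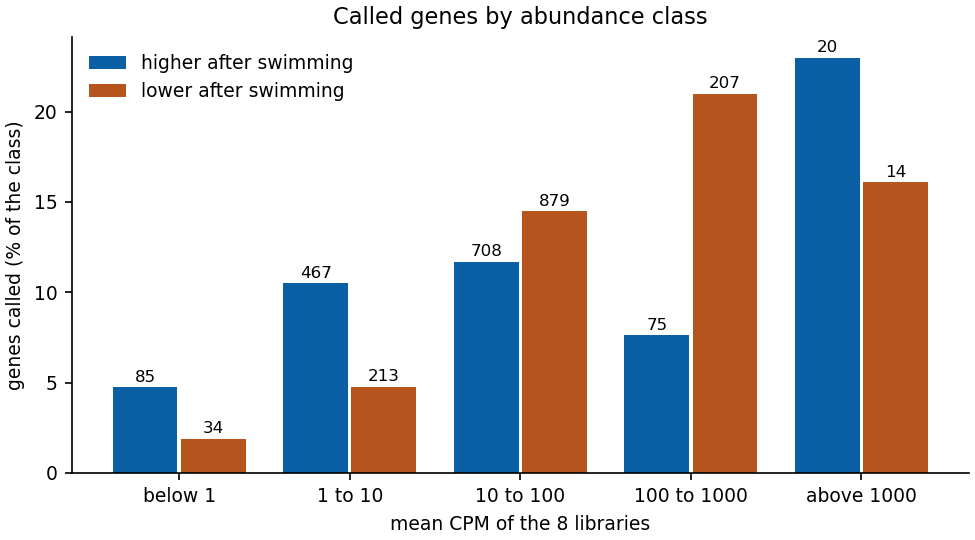
Share of each abundance class called higher (blue) or lower (orange) in contused rats that swam than in uninjured rats; the classes are by mean CPM of the 8 libraries and the numbers on the bars are genes. More genes rose than fell below 10 CPM, and more fell than rose between 10 and 1000 CPM.

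Over all genes of a class, called or not, the median log2 change was 0.30, 0.16, -0.04, -0.18 and -0.13 from the least to the most abundant class. Under scaling by library totals alone the medians were 0.38, 0.24, 0.04, -0.10 and -0.05, so the sign of the class from 10 to 100 CPM turned. Under that scaling 612 genes of that class were higher and 482 lower, while in the class from 100 to 1000 CPM 74 were higher and 146 lower. Without swimming library 2 the medians were 0.29, 0.15, -0.06, -0.18 and -0.13. The median SE was 0.52 in the least abundant class, 0.25 from 1 to 10 CPM and 0.16 in both classes between 10 and 1000 CPM. Above 1000 CPM it was 0.23. The test thus reached smaller changes between 10 and 1000 CPM than in the other classes. Below 1 CPM the called genes that rose had a median log2 change of 1.74 and those that fell -2.23. The medians were 0.95 and -0.86 from 1 to 10 CPM, and 0.74 and -0.55 from 10 to 100 CPM. They were 0.68 and -0.59 from 100 to 1000 CPM, and 1.33 and -0.85 above. The larger size of the rises therefore did not hold below 1 CPM.

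**Figure D3:**
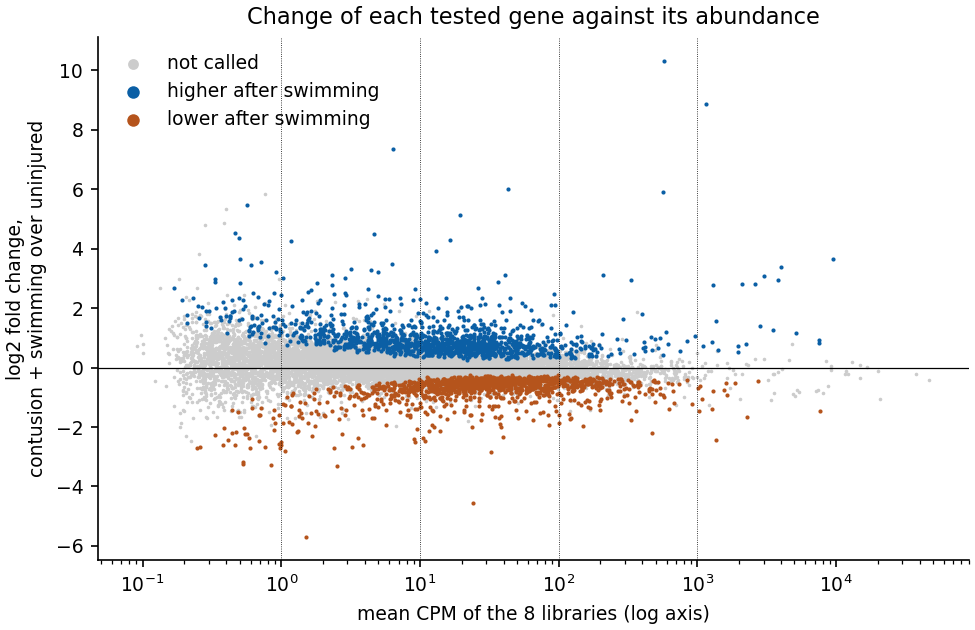
Log2 fold change of contusion with swimming over uninjured for each of the 13398 tested genes, against the mean CPM of the 8 libraries on a log axis; blue genes were called higher, orange lower, grey not called, and dotted lines mark the class limits. Among called genes that averaged 1 CPM or more and whose groups did not overlap, the highest is at 10.33 and the lowest at -5.68.

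The class above 1000 CPM was set by the mean of all 8 libraries, so a gene could enter it through its swimming values. Of the 20 genes in it that rose, 10 averaged above 1000 CPM in uninjured libraries alone, and 17 in the 8 libraries less swimming library 2. The 20 genes held 7.88%, 21.8%, 7.52% and 6.64% of the counts of swimming libraries 1 to 4, and 3.33%, 4.08%, 2.74% and 2.85% of the counts of uninjured libraries 1 to 4. All 4 swimming libraries were higher than all uninjured ones, and swimming library 2 was the highest by far. The 10 genes above 1000 CPM in uninjured muscle held 5.37%, 12.2%, 5.09% and 4.87% of swimming libraries 1 to 4, and 2.62%, 2.98%, 2.43% and 2.38% of uninjured libraries 1 to 4. In 13 of the 20 genes swimming library 2 was more than 2-fold above the next swimming library. Without it 11 of the 20 still passed the test, and the median log2 change of all 20 was 0.75 in place of 1.33.

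The 14 genes above 1000 CPM that fell held 2.10%, 1.18%, 2.37% and 2.24% of the counts of swimming libraries 1 to 4, and 4.42%, 3.39%, 3.55% and 4.32% of the counts of uninjured libraries 1 to 4. Swimming library 2 was the lowest here. Without it 11 of the 14 passed, and the median log2 change of all 14 was -0.76 in place of -0.85. Below 1 CPM, 40 of the 85 genes that rose and 20 of the 34 that fell passed without swimming library 2. From 1 to 10 CPM, 293 of the 467 that rose and 148 of the 213 that fell passed. Of the genes from 10 to 100 CPM, 530 of the 708 that rose and 694 of the 879 that fell passed without it. From 100 to 1000 CPM, 52 of the 75 that rose and 164 of the 207 that fell passed.

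Taking all called genes, those that rose held 17.2 ± 8.56% of counts after swimming and 6.49 ± 0.818% in uninjured muscle (SD, n = 4 each). Those that fell held 8.99 ± 1.18% after swimming and 14.4 ± 1.22% in uninjured muscle. In transection libraries the genes that rose held 15.5% to 17.9% and those that fell 7.53% to 8.36%. In walking libraries the 2 sets held 8.78% to 12.9% and 10.1% to 11.5%, and in contusion libraries 7.64% to 10.5% and 9.93% to 12.1%. These genes were chosen by this comparison, so the shares describe how much of the library they make up and test nothing. In swimming library 2, the 10 genes that most exceeded the other swimming libraries held 17.1% of counts, against 5.12%, 4.84% and 3.37% in swimming libraries 1, 3 and 4 and a mean of 1.61% in uninjured libraries. With the 50 such genes set aside, the other genes that rose held 6.30% of swimming library 2, and 6.06%, 6.05% and 7.32% of swimming libraries 1, 3 and 4, against a mean of 3.64% in uninjured libraries. These genes were chosen for their excess, and with only 10 or 20 set aside the rest held 13.0% and 8.26% of swimming library 2, still the highest share, against 7.82% to 9.28% and 6.67% to 8.04% in the other swimming libraries. The genes that fell held 7.25% of swimming library 2 and 9.29% to 9.76% of the others.

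Other libraries shaped the calls as well. Swimming library 2 was the highest swimming library in 43.9% of the genes that rose and the lowest in 45.9% of those that fell, whereas swimming library 1 was so in 7.38% and 10.9%. Uninjured library 4 was the lowest uninjured library in 41.5% of the genes that rose and the highest in 56.6% of those that fell. The spread among libraries was wider after swimming. The median SD of log2 CPM over all tested genes was 0.29 in swimming libraries and 0.23 in uninjured ones, and 63.2% of genes varied more among swimming libraries. Without swimming library 2 the swimming median was 0.24.

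The share of counts in the most abundant genes differed by less than the spread between libraries. The top 50 genes by count made up 44.5%, 49.6%, 45.9% and 44.0% of swimming libraries 1 to 4, and 43.9%, 45.7%, 46.6% and 45.7% of uninjured libraries 1 to 4. The groups overlapped, and the difference of 0.54 percentage points had an exact two-sided permutation p of 0.743.

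At equal depth, every swimming library held more detected genes than every uninjured library, a difference that did not pass after adjustment. With every library thinned to 21165832 counts, 15599, 15478, 15597 and 15764 genes had a count in swimming libraries 1 to 4, and 15390, 15407, 15424 and 15140 in uninjured libraries 1 to 4. The difference of means was 269 genes, with an exact two-sided permutation p of 0.0286, which no comparison of 4 with 4 can go below; adjusted by Benjamini-Hochberg over 3 such measures it was 0.0857. Thinning was added after seeing the data. At the deposited depths the means were 15764 genes after swimming and 15704 in uninjured muscle, with overlapping groups and an exact permutation p of 0.743.

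Genes with a count in all libraries of 1 group and in none of the other were tallied. Among all 18618 genes, 14 had a count in every swimming library and 0 counts in every uninjured library, with 5 to 77 counts per gene over the 4 swimming libraries together. Another 13 had 0 counts in every swimming library and a count in every uninjured library, with 4 to 22 counts per gene over the uninjured libraries. Of both sets, 0 genes had enough counts to be tested.

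The 12 genes with the highest and the 12 with the lowest log2 change, among called genes that averaged 1 CPM or more and whose groups did not overlap, show the ends of the response. The highest 12 lay between 3.48 and 10.33. In 10 of them swimming library 2 was the highest swimming library, and in the same number it was more than 2-fold above the next. Without it their median log2 change was 2.85 in place of 4.81, and 11 still passed. The lowest 12 lay between -5.68 and -2.38. Swimming library 2 was the lowest in 9 of them. Without it 11 passed, and the median of all 12 was -2.44 in place of -2.65. Leaving out that library moved the median of the lower end by less than that of the upper end. The same genes also differed from uninjured muscle in the other injured groups. The median of the highest 12 was 2.45 after walking, 2.04 after contusion alone and 3.19 after transection. That of the lowest 12 was -1.46, -1.25 and -2.90 in the same order. All of these share the uninjured libraries, and no test was made.

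Among the genes within these limits, ENSRNOG00000006471 had the highest change. It stood at 42.5, 4469, 66.0 and 10.3 CPM in swimming libraries 1 to 4, and at 1.56, 1.15, 0.382 and 0.505 CPM in uninjured libraries 1 to 4. All swimming libraries were above all uninjured ones, but they differed among themselves by far more than the uninjured libraries did. The log2 fold change was 10.33 (SE 1.88, edgeR adjusted p = 0.00154). Without swimming library 2 it was 5.47 (edgeR adjusted p = 0.00291). In the other groups this gene lay at 53.1 ± 52.3 CPM after walking, 16.6 ± 15.3 after contusion alone and 134 ± 46.6 after transection (SD, n = 4 each).

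ENSRNOG00000019745 was the next highest. It stood at 413, 8209, 494 and 112 CPM in swimming libraries 1 to 4, and at 5.88, 7.95, 2.40 and 3.69 CPM in uninjured libraries 1 to 4. The swimming libraries were again all above the uninjured ones, with library 2 far ahead and library 4 the lowest. The log2 fold change was 8.85 (SE 1.29, edgeR adjusted p = 5.15e-04), and 6.08 without swimming library 2. In ENSRNOG00000006471 the order of the swimming libraries was the same, with library 2 highest, then 3, 1 and 4. ENSRNOG00000019745 was also high elsewhere, at 278 ± 163 CPM after walking, 141 ± 104 after contusion alone and 1362 ± 399 after transection (SD, n = 4 each). Transection libraries ran from 965 to 1904 CPM, above every swimming library but library 2.

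Within the same limits, ENSRNOG00000001736 and ENSRNOG00000001212 had the lowest changes. ENSRNOG00000001736 stood at 1.98, 1.06, 2.43 and 2.32 CPM in swimming libraries 1 to 4, and at 58.8, 30.7, 37.8 and 58.0 CPM in uninjured libraries 1 to 4. The 4 swimming values lay close together and far below every uninjured one. The log2 fold change was -4.56 (SE 0.57, edgeR adjusted p = 2.74e-04). Without swimming library 2 it was -4.37. This gene was also low elsewhere, at 6.63 ± 3.81 CPM after walking, 6.46 ± 3.34 after contusion alone and 0.770 ± 0.549 after transection (SD, n = 4 each).

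ENSRNOG00000001212 gave 3, 1, 2 and 0 counts in swimming libraries 1 to 4, against 115, 71, 14 and 180 in uninjured libraries 1 to 4. It was near the limit of detection in every swimming library, and its uninjured level varied widely, at 2.95 ± 2.38 CPM (SD, n = 4). The log2 fold change was -5.68 (SE 1.15, edgeR adjusted p = 0.00309), and -5.63 without swimming library 2. The gene was also low elsewhere, at 0.28 ± 0.335 CPM after walking, 0.237 ± 0.338 after contusion alone and 0.0345 ± 0.0516 after transection (SD, n = 4 each).

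**Figure D4:**
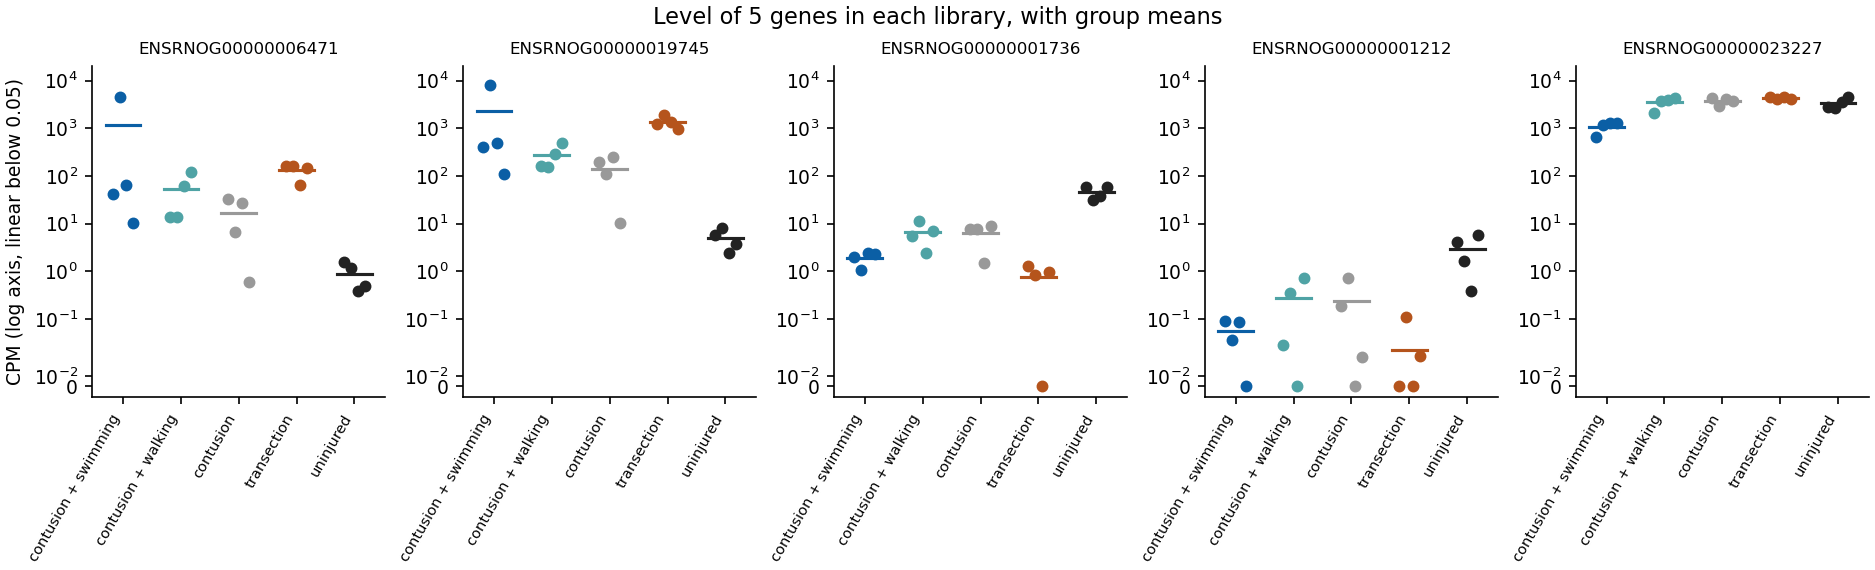
CPM of 5 genes in each library of the 5 groups, on an axis that is logarithmic above 0.05 CPM and linear below it; points are libraries and short lines are group means, n = 4 per group. Swimming library 2 is the high point at 4469 and 8209 CPM in the first 2 genes, and the fifth gene is lower after swimming than in every other group.

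The genes called after swimming were then read in the other injured groups. The comparisons of walking, of contusion alone and of transection with uninjured muscle all share the uninjured libraries with the one that chose these genes, so their values are set side by side without a test. The genes were also chosen for their change after swimming, which by itself tends to make the swimming value the largest. The sizes below therefore do not show a stronger response to swimming. For the 1355 genes that rose, the median log2 change from uninjured was 0.84 after swimming, 0.39 after walking, 0.28 after contusion alone and 0.33 after transection. For the 1347 that fell it was -0.60, -0.31, -0.23 and -0.36 in the same order. The spread of single genes was widest after transection, and the quartiles of the genes that rose lay on both sides of 0 there. For the genes that rose, the quartiles of the log2 change were 0.23 and 0.64 after walking, 0.12 and 0.50 after contusion alone, and -0.14 and 0.85 after transection. For the genes that fell they were -0.51 and -0.19 after walking, -0.42 and -0.11 after contusion alone, and -0.81 and -0.07 after transection. Over all tested genes the medians were 0.04, 0.02, 0.01 and 0.02.

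By library, the median of the genes that rose lay between 0.71 and 0.91 above the uninjured mean in swimming libraries. It lay between 0.22 and 0.63 in walking libraries, 0.16 and 0.36 in contusion libraries, and 0.09 and 0.43 in transection libraries. The medians of the genes that fell lay between -0.69 and -0.56 in swimming libraries, against -0.45 to -0.20 in walking, -0.30 to -0.16 in contusion and -0.43 to -0.22 in transection libraries. Walking library 1, at 0.63 and -0.45, was the closest to the swimming libraries. Every library of the contused and transection groups was on the same side of the uninjured mean as swimming for both sets. The genes were chosen against these uninjured libraries, so nothing is read from the shared side. They were chosen by the swimming libraries too, so nothing is read from the larger distance of those libraries.

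**Figure D5:**
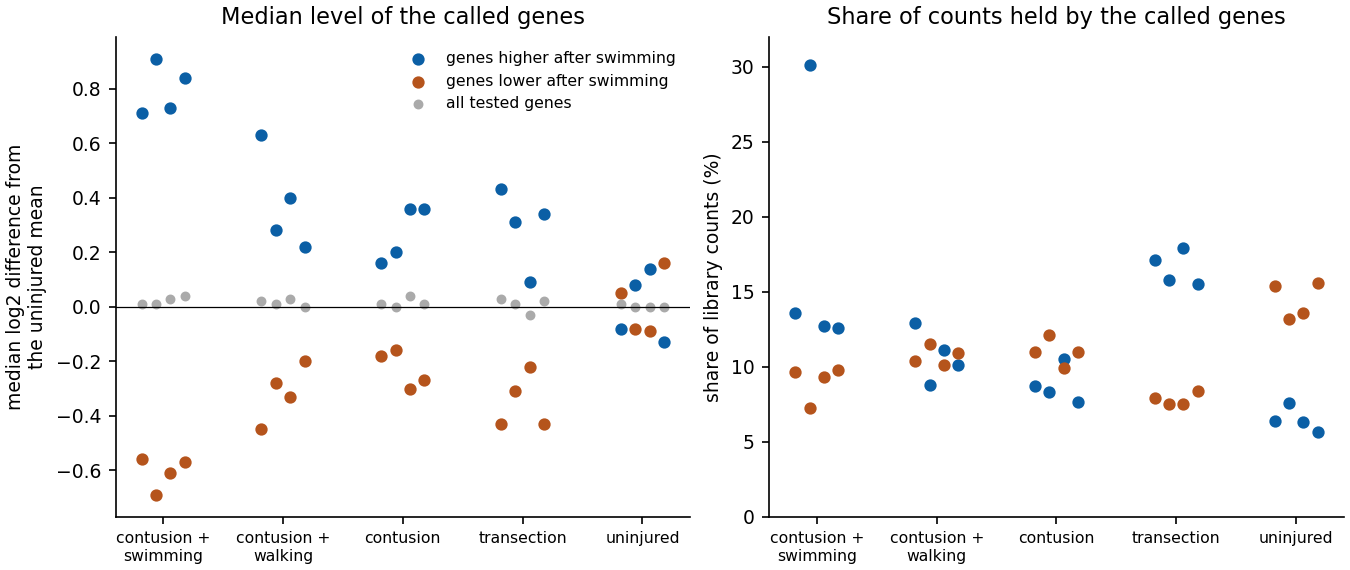
Left, median log2 difference from the uninjured mean of the genes called higher (blue) or lower (orange) after swimming, and of all tested genes (grey), in each library of the 5 groups. Right, the percent of each library's counts held by the genes of each set; swimming library 2 is the high blue point at 30.1%. The blue points of the transection libraries lie at 15.5% to 17.9%.

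Whether the change from uninjured muscle differed between contused groups was tested directly, since the uninjured libraries cancel in those contrasts. Against contusion alone, swimming libraries had 307 higher and 303 lower genes, 4.55% of those tested (edgeR adjusted p below 0.05). The higher genes were 2.29% of those tested and the lower genes 2.26%. The swimming group is labelled 13.5 weeks and the contusion group 11.5 weeks. Exercise and labelled time thus differ together in this contrast and cannot be told apart. Of the 1355 genes above uninjured, 284 were also above contusion, and of the 1347 below uninjured, 259 were also below contusion. Both contrasts use the same 4 swimming libraries, whose spread moves both, so nothing is read from these shared numbers. The number of genes differing from contusion fell to 112 without swimming library 2 and to 1 without contusion library 1. With swimming library 2 and transection library 3 both left out, a fit added after seeing the data, the number was 633 (349 higher and 284 lower). Leaving out contusion library 2 gave 70, contusion library 4 gave 52 and swimming library 1 gave 395. Scaled by library totals alone, 293 rose and 18 fell, and the median change of all genes was 0.19 in place of 0.01.

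Against walking, both groups being taken at 13.5 weeks, 1 gene of 13398 passed (0.00746%). By edgeR 2066 genes had an unadjusted p under 0.05, and 280 were called when walking library 1 was left out. The other tools called 145 (DESeq2) and 315 (voom). The gene was ENSRNOG00000023227, named because it was the single call. It stood at 648, 1148, 1296 and 1269 CPM in swimming libraries 1 to 4, at 2053, 3771, 3902 and 4341 CPM in walking libraries 1 to 4, and at 2856, 2678, 3588 and 4626 CPM in uninjured libraries 1 to 4. Every swimming value was below every walking and every uninjured value, while walking and uninjured values overlapped.

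ENSRNOG00000023227 was lower after swimming than after walking, with a log2 value of -1.69 for the difference (edgeR adjusted p = 0.0156, SE 0.25). Its difference from uninjured muscle was -1.66 (edgeR adjusted p = 5.64e-04, SE 0.25). The call against walking was lost with the compared groups alone (edgeR adjusted p = 0.348) and without swimming library 1 (0.0691). It was also lost without walking library 2, 3 or 4 (0.0766, 0.0846 and 0.0988). The log2 difference kept its sign in all of these, between -1.50 and -1.70.

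The separate counts against uninjured muscle, 2702 genes for swimming, 66 (0.493%) for walking and 0 for contusion alone, do not by themselves show that the groups differ. For contusion alone, 1342 genes had an unadjusted p under 0.05 by edgeR and the smallest adjusted p was 0.0527.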

How the data were processed

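RNA was taken from soleus muscle, and stranded poly-A libraries were made, per the labels' protocols. The authors deposited whole-number read counts for each gene, without normalisation. The submitters' processing notes name FastQC 0.10.1, HTSeq and the build rn6; the aligner, annotation and strand setting are not given in the sources used here. Overlapping genes and near-identical copies may share counts.

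All 20 libraries entered a fit with 1 mean per group in edgeR 4.0.16 (R 4.3.3), with trimmed-mean scaling, filterByExpr at a minimum count of 10 and 15 residual degrees of freedom. Each contrast was given a quasi-likelihood F test, and p-values were adjusted over 13398 genes by Benjamini-Hochberg. The SE was computed from the log2 fold change and F, with a prior count of 0.125. CPM used the scaled library sizes, and per-library log2 CPM a pseudocount of 0.1. Alternatives used DESeq2 1.42.0 and limma 3.58.1. In a simulation of swimming against uninjured over 13398 genes, 200 genes were changed. Of these edgeR found 22.7% at 1.5-fold, 55.1% at 2-fold and 90.8% at 4-fold, beside 1 false call. The simulation changed far fewer genes than were called here. It drew each count independently, without shifts of whole libraries, so these shares may not hold for the real comparison. Pairs of libraries within the swimming and uninjured groups differed beyond counting error, with a chi-square per degree of freedom of 48.8 to 535 over 12 pairs.

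Genes given by identifier are the 2 highest and 2 lowest called genes that averaged 1 CPM or more and whose groups did not overlap. This rule replaced one by symbol, as 0 identifiers matched. The groups, lists and tests were chosen with earlier results of these data known. Single measures were compared by exact permutation tests. Figures were drawn with matplotlib 3.10.9.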

Additional observations from a re-analysis of the deposited data

Results flagged for a closer look

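In 22 sets of 4 values (6 measures per library and the CPM of 5 genes, each in swimming and in uninjured libraries), 4 had 1 library set well apart from its group. About 1.1 would be flagged by chance in sets not chosen for their values. Swimming library 2 accounted for 3 of these, all in values chosen by the comparison it takes part in (the called genes and the highest changes), so the chance number does not apply to them. It held 30.1% of its counts in the genes called higher than in uninjured muscle, and the next swimming library held 13.6%. It stood at 4469 CPM of ENSRNOG00000006471, where the next was at 66.0, and at 8209 CPM of ENSRNOG00000019745, where the next was at 494. The scaling factor of uninjured library 4 was 0.982, and the next lowest uninjured factor was 1.08. The direct tests between contused groups found differences at 610 genes for swimming against contusion alone and at 1 gene for swimming against walking. In the first of these tests the labelled times differed as well.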

How the results depend on the processing

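Called genes for swimming against uninjured stayed within 1.5 times of 2702 under every alternative except leaving out uninjured library 4 (1477). Leaving out single libraries gave 1477 to 2571 in all, 701 to 1300 higher and 776 to 1276 lower. Lower genes numbered 775 with library totals and 831 with the compared groups alone. A robust spread estimate, added after seeing the data, gave 1338 higher and 1347 lower.

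For swimming against contusion alone, with 610 genes called (307 higher and 303 lower), the number moved by more. Library totals gave 311 (18 lower), no low-count filter 353 (199 and 154), the compared groups alone 284 (62 lower), DESeq2 1211 (669 and 542) and voom 1755 (845 and 910). Single libraries left out gave 1 to 511 in all, 0 to 270 higher and 1 to 264 lower. Leaving out both swimming library 2 and transection library 3 gave 633 (349 and 284). Swimming against walking gave 0 with the compared groups alone and without both swimming library 2 and transection library 3, 145 with DESeq2, 315 with voom, and 0 to 280 with single libraries left out.

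Samples with the same replicate number were not paired by the data: their deviations correlated at 0.0262, 0.151, -0.295 and -0.0303. A fit that took the replicate number as a block called 2507 genes against uninjured, 334 against contusion (160 higher and 174 lower) and 1 against walking.

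The 4 genes named for the comparison with uninjured kept their direction and call under all alternatives that gave a value. ENSRNOG00000006471 had no adjusted p with DESeq2, and ENSRNOG00000001212 was removed at a mean CPM of at least 1. With single libraries left out, the log2 change of ENSRNOG00000006471 ran from 5.47 to 10.74 and that of ENSRNOG00000019745 from 6.08 to 9.25. That of ENSRNOG00000001736 ran from -4.71 to -4.37 and that of ENSRNOG00000001212 from -6.14 to -5.15. ENSRNOG00000023227 against walking ran from -1.86 to -1.50, and over all alternatives its adjusted p ran from 4.88e-09 to 0.348; without swimming library 2 and transection library 3 it was 0.0634. The causes were not tested.

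The share in the most abundant genes differed by -1.12 percentage points for the 10 most abundant, and by -0.651 to 1.21 with single libraries left out. Genes with a count differed by 269 after thinning, and by -52.8 to 156 with single libraries left out; 3 against 4 libraries cannot give an exact p below 0.0571.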
